A study of Mus musculus with 2 samples.

Results

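Hif1a, Egln3, Slc2a1, Ldha, Pdk1, Hilpda, Bnip3, Ndrg1, P4ha1 and Adm are genes of the hypoxia response and of glycolysis, and they were described here across the cells of mouse dura mater. They were taken by gene symbol, and all 10 were found once among the 33696 genes of each count matrix. Single cells of the dura of female mice had been sequenced at transcript 3′ ends in droplets, with 1 library from mice whose jugular veins were ligated 14 days earlier (JVL-14) and 1 library from mice after sham surgery (sham). Mice were perfused, the membrane was lifted off the skullcap and treated with collagenase, 2 meninges were pooled per well, and live single cells were sorted. The strain, the number of mice behind each library and the time between sham surgery and collection are not given in the sources used here. With 1 library per group there is no replicate check: no test was made, and every interval below covers counting error only.

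The deposited matrices held 18796260 UMIs (unique molecular identifiers, 1 per captured transcript) in 3004 barcodes for JVL-14 and 33996641 UMIs in 5495 barcodes for sham. After filtering, 2471 JVL-14 cells and 4672 sham cells were retained, with a median of 4530 UMIs per JVL-14 cell and 4502.5 per sham cell. Between the libraries 2 barcodes were shared, 1 of them among retained cells. Clusters were named from marker genes, so that each class name stands for cells like that type (fibroblast-like, macrophage-like and so on). A class was compared where both libraries held 50 or more of its cells, which was so for 13 classes. The mix of cells differed between the libraries. Skeletal muscle cells numbered 3 in JVL-14 and 249 in sham, choroid plexus cells 0 in JVL-14 and 80 in sham, and pineal cells 0 in JVL-14 and 52 in sham. These and the olfactory neurons (192 in JVL-14, 178 in sham) are cells of tissue outside the dura. Summed RNA of 12 skeletal muscle genes was also lower in JVL-14 in cells of other classes, at 14.4 CPM (counts scaled to a class total of 1000000 UMIs) in JVL-14 fibroblasts and 184 CPM in sham fibroblasts. Its part in the values below was not tested.

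Cells short of oxygen stabilise the transcription factor HIF-1, whose oxygen-sensitive subunit HIF-1α is otherwise marked for destruction by prolyl hydroxylases. HIF-1 binds a short core sequence near its target genes and raises glucose uptake, glycolysis and lactate production, while it lowers pyruvate use in mitochondria. The dura is a collagen-rich membrane with blood vessels, nerve fibres and many immune cells, and it lies against bone marrow of the skull.

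Promoters were read for the members because HIF-1 acts through the core letters ACGTG or GCGTG. The RefSeq table (build GRCm38.p6, windows from 250 bases before to 50 bases after each gene's start) held 12 windows for 9 of the 10 members, and Ndrg1 was not matched. At least 1 core, on either strand, was found for 9 of these 9 members and in 11 of the 12 windows. Over all genes of the table, 46.7% of 27025 genes and 43.8% of 32851 windows held one, so a core is common. ACGTG was found in 7 of the 9 members (21.8% of all genes), and GCGTG in 7 of the 9 (35.2% of all genes). The members' windows held between 40.3% and 71.7% G and C, most of them above the median of all windows, 52.7%. Both cores contain CG, and the shares of members and of all genes were not matched for G and C. Promoters of 3 members that the results below turn on are printed 5′ to 3′ on the gene's strand, with the cores of both strands in capitals (ACGTG and GCGTG forward, CACGT and CACGC on the other strand, and overlapping matches merged into 1 run). They are Ldha (chr7:46845554-46845853, + strand), which is widely expressed, Hilpda (chr6:29272376-29272675, + strand), which differed most between the libraries within classes, and Egln3 (chr12:54203825-54204124, - strand), which differed most over whole libraries.
Ldha: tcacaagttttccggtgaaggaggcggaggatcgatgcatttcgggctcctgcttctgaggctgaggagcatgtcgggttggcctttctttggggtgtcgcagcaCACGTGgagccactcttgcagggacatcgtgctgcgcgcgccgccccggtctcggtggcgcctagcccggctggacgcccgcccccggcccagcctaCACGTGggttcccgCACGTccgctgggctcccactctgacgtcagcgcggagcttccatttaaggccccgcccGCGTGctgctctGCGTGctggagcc
Hilpda: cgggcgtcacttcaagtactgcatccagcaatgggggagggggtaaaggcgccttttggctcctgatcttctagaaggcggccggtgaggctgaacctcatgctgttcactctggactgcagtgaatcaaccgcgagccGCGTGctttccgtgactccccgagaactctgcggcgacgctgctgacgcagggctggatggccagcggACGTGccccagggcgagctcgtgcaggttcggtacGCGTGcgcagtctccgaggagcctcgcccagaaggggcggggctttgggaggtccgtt
Egln3: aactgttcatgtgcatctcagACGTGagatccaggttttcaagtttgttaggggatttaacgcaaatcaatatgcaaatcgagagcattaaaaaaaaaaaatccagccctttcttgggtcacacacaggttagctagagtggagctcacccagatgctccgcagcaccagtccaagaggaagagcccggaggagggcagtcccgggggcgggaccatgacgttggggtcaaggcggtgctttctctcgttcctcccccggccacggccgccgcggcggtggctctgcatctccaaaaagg
The Ldha window held 5 runs of capitals, the Hilpda window 3 and the Egln3 window 1. Ldha and Hilpda each have another window in the table with fewer, 2 runs for Ldha and 1 for Hilpda, and the one with more is shown. These letters are matches and not measured binding sites.

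**Figure D1:**
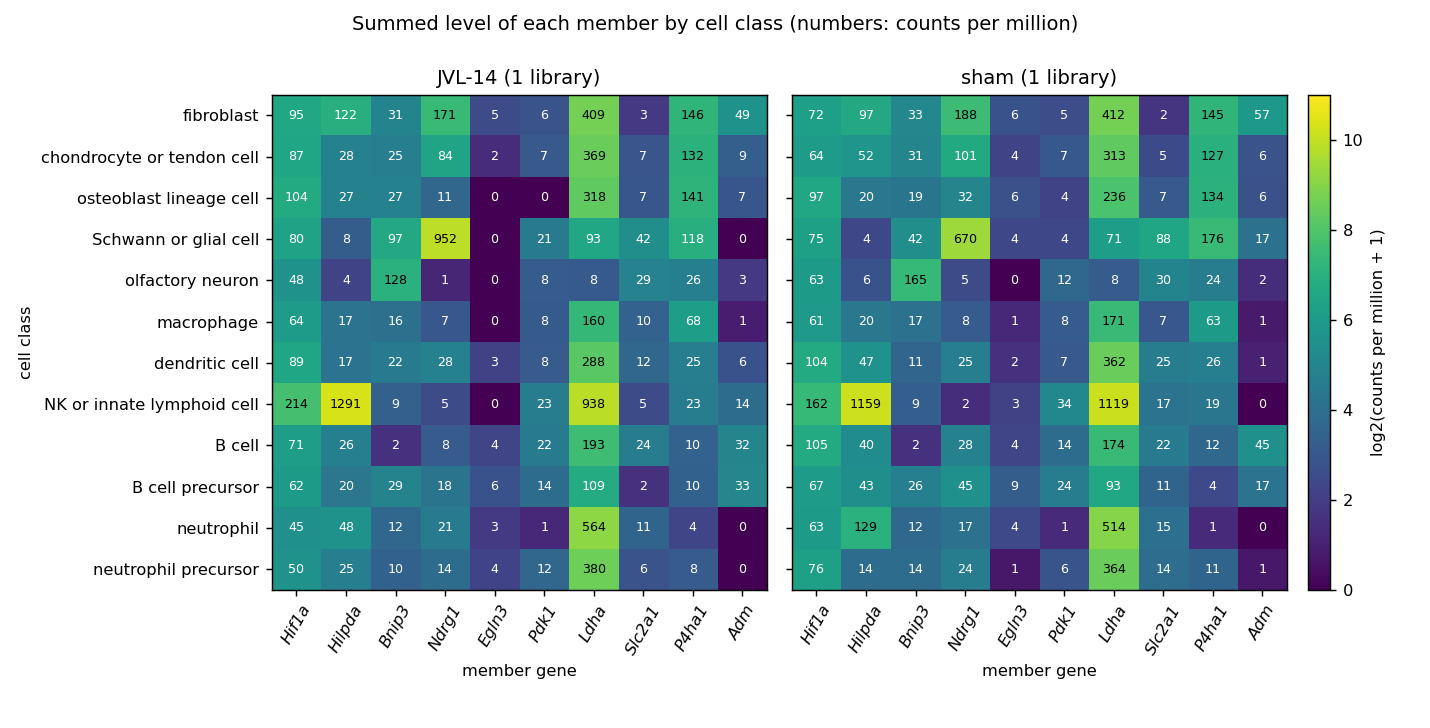
Summed level of each member (columns) in 12 cell classes (rows), with JVL-14 on the left and sham on the right. Numbers are CPM and colour is log2(CPM + 1). The pattern over classes was much the same in both libraries, with Hilpda brightest in natural killer or innate lymphoid cells and Ndrg1 brightest in Schwann or glial cells.

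Hif1a, which encodes HIF-1α, was spread over all compared classes but erythroid cells. Skeletal muscle cells, too few in JVL-14 to compare, held little of it: without them its sham UMIs went only from 2206 to 2202. Natural killer or innate lymphoid cells, a cluster led by Ccl1, Gata3 and Areg, had the highest level of the 13 classes, 214 CPM in JVL-14 and 162 CPM in sham. Its interval stood clear of the next class in both libraries. The leading genes of this lymphoid cluster also include Csf2, Arg1 and Icos, while Gzma and Ctsw are among those of the cluster named T cell. Values under the joint name are not read as those of natural killer cells. The next 11 classes lay between 45.1 and 104 CPM in JVL-14 and between 61.5 and 105 CPM in sham. Neighbours among them had overlapping intervals in both libraries, save B cells above fibroblasts in sham. In fibroblasts Hif1a was at 95.2 CPM in JVL-14 and 72.5 CPM in sham, a ratio of 1.31 (1.15 to 1.501). In chondrocyte or tendon cells it was at 86.5 CPM in JVL-14 and 64.2 CPM in sham (ratio 1.35, 1.05 to 1.73). Both stromal ratios lay above 1 by more than counting error and short of 1.5-fold. In macrophages the values were 64.4 CPM in JVL-14 and 61.5 CPM in sham, which differed by less than counting error (ratio 1.05, 0.796 to 1.37). Neutrophil precursors had 49.9 CPM in JVL-14 and 75.7 CPM in sham (ratio 0.659, 0.492 to 0.879). Their median depth also differed, at 7913 UMIs per JVL-14 cell and 16241 per sham cell. With cells thinned to 1000 UMIs the log2 ratio of these precursors was 0.053, against -0.60 unthinned, so the direction was not kept there. That setting held 117 JVL-14 and 89 sham cells, with cells of fewer UMIs left out, and its value rests on few Hif1a UMIs. Of 13 alternatives, 12 had the same sign as the main value and 7 stayed past 1.5-fold.

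Egln3 encodes PHD3, a prolyl hydroxylase that marks HIF-1α for destruction and is itself a HIF target. It was rare: 40 UMIs in JVL-14 and 232 UMIs in sham over all retained cells. Of the sham UMIs, 127 came from skeletal muscle cells, 54.7% (exact 95% interval 48.1% to 61.3%), and of the JVL-14 UMIs 1 did. The muscle cells of sham held 193 CPM (161 to 230). In the 13 compared classes Egln3 stayed at or under 5.85 CPM in JVL-14 and at or under 8.61 CPM in sham, too low for a ratio. Fibroblasts held 17 UMIs in JVL-14 and 54 in sham, equal to 4.90 CPM (2.86 to 7.85) in JVL-14 and 5.91 CPM (4.44 to 7.71) in sham. These intervals overlap.

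Slc2a1, which encodes the glucose transporter GLUT1 and marks barrier endothelium of the brain, was highest in blood endothelial cells. They held 406 CPM (305 to 529) in JVL-14 and 138 CPM (105 to 179) in sham. JVL-14 had 46 such cells, under the 50 needed for a comparison, and sham had 168. Few cells carried the signal: 5 cells held 81.5% of the 54 UMIs in JVL-14 and 75.9% of the 58 UMIs in sham. The class joined 2 clusters in different proportions, with 43 of the JVL-14 cells and 97 of the sham cells in the cluster led by Plvap and Igfbp3. Among the compared classes, Schwann or glial cells came first at 42.3 CPM in JVL-14 and 87.9 CPM in sham, followed by olfactory neurons at 28.6 CPM in JVL-14 and 30.2 CPM in sham. The intervals of these classes overlapped in JVL-14. Fibroblasts were near the floor, with 2.60 CPM in JVL-14 and 2.19 CPM in sham.

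Ldha encodes the lactate dehydrogenase subunit that turns pyruvate into lactate, and it had the most UMIs of the 10 genes, 4437 in JVL-14 and 10782 in sham. Mast cells, which were too few in JVL-14 to compare (26 in JVL-14, 72 in sham), held 1850 CPM (1582 to 2151) in JVL-14 and 2042 CPM (1858 to 2238) in sham. Skeletal muscle cells of sham held 1902 CPM (1798 to 2010). Of the 13 compared classes, natural killer or innate lymphoid cells were highest (938 CPM in JVL-14, 1119 CPM in sham), then neutrophils (564 CPM in JVL-14, 514 CPM in sham) and fibroblasts (409 CPM in JVL-14, 412 CPM in sham). The intervals of these 3 stood apart in both libraries, while fibroblasts overlapped the neutrophil precursors, next in the order, in JVL-14. Olfactory neurons were lowest by the mean of both libraries, at 7.62 CPM in JVL-14 and 8.12 CPM in sham. In fibroblasts the ratio was 0.995 (0.935 to 1.06), the narrowest interval of any member there. Macrophages had 159.8 CPM in JVL-14 and 171 CPM in sham (ratio 0.934, 0.789 to 1.10). Small differences beyond counting error, short of 1.5-fold, went in both directions. Ldha was higher in JVL-14 in chondrocyte or tendon cells (369 CPM in JVL-14, 313 CPM in sham, ratio 1.18). It was also higher in osteoblast lineage cells (318 CPM in JVL-14, 236 CPM in sham, ratio 1.34, 1.05 to 1.72). It was lower in dendritic cells (288 CPM in JVL-14, 362 CPM in sham, ratio 0.794) and in natural killer or innate lymphoid cells (ratio 0.838, 0.712 to 0.983).

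Pdk1 encodes a kinase that switches off pyruvate dehydrogenase and so lowers the use of pyruvate in mitochondria. It was low everywhere, with 124 UMIs in JVL-14 and 225 UMIs in sham, or 8.10 CPM in JVL-14 and 7.92 CPM in sham over all retained cells. Its highest class mean was in natural killer or innate lymphoid cells, at 23.2 CPM (7.54 to 54.2) in JVL-14 and 34.5 CPM (21.1 to 53.3) in sham, and this overlapped the B cell precursors, next in the order, in both libraries. No class had enough Pdk1 for a ratio.

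Hilpda encodes a small lipid droplet protein that holds back triglyceride breakdown. Natural killer or innate lymphoid cells stood apart from every other compared class, with 1291 CPM in JVL-14 and 1159 CPM in sham. They held 1.41% of all JVL-14 UMIs and 2.04% of all sham UMIs, but 29.2% (26.4% to 32.2%) of the Hilpda UMIs of JVL-14 and 29.8% (28.0% to 31.8%) of those of sham. Fibroblasts had the next level in JVL-14, with 122 CPM in JVL-14 and 97.4 CPM in sham, and neutrophils the next in sham, with 47.8 CPM in JVL-14 and 129 CPM in sham. Olfactory neurons and Schwann or glial cells were lowest besides erythroid cells, at no more than 8.46 CPM in either library. The T cells, too few to compare (28 in JVL-14, 41 in sham), held 108 CPM (60.2 to 177) in JVL-14 and 241 CPM (171 to 329) in sham.

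Between the libraries Hilpda was lower in JVL-14 in 3 classes by more than 1.5-fold. Neutrophils had 47.8 CPM in JVL-14 and 129 CPM in sham, from 36 UMIs in JVL-14 and 177 in sham, a ratio of 0.369 (0.2503 to 0.530). Dendritic cells, a cluster led by Ccl17 and Cd209a, had 17.3 CPM in JVL-14 and 47.3 CPM in sham (ratio 0.365, 0.197 to 0.632). Chondrocyte or tendon cells, led by Chad, Cilp2 and Comp, had 27.8 CPM in JVL-14 and 52.3 CPM in sham (ratio 0.530, 0.353 to 0.777). In fibroblasts and in natural killer or innate lymphoid cells the ratios were above 1 and under 1.5-fold, at 1.25 (1.11 to 1.41) in fibroblasts and 1.11 (0.965 to 1.28) in the lymphoid cells. The direction thus differed between classes in the same pair of libraries. Whether the ratios differ between classes beyond the variation of mice cannot be tested with 1 library per group.

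The neutrophils were 2 clusters. In the one led by Ltf, Ngp and Camp, genes of the granules of maturing neutrophils, Hilpda was at 36.6 CPM in JVL-14 and 131 CPM in sham (ratio 0.281, 0.168 to 0.446). In the one that includes Retnlg and Cxcr2, genes of mature neutrophils, it was at 83.1 CPM in JVL-14 and 125 CPM in sham (ratio 0.663, 0.337 to 1.24), within counting error. The earlier neutrophil precursors, led by Elane and Mpo, had 24.9 CPM (17.9 to 33.8) in JVL-14 and 13.7 CPM (8.56 to 20.7) in sham, a mean under the 20 CPM needed for a ratio. Median depth of neutrophils was 5419 UMIs per JVL-14 cell and 7058 per sham cell. The summed level of 22 genes induced by tissue dissociation was 10229 CPM in JVL-14 neutrophils and 9390 CPM in sham neutrophils, and its part in the Hilpda difference was not tested.

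The fibroblasts were 4 clusters, and Hilpda was not level among them. The cluster led by Tnfrsf11b and Penk (135 JVL-14 cells, 431 sham cells) held 218 CPM in JVL-14 and 146 CPM in sham, a ratio of 1.49 (1.29 to 1.72). The largest cluster, led by Inmt and Prss35, held 54.6 CPM in JVL-14 and 43.3 CPM in sham (ratio 1.26, 0.973 to 1.63). A small cluster led by interferon-induced genes (Ifit3, Ifit1) held 173 CPM in JVL-14 and 77.1 CPM in sham, from 23 JVL-14 cells and 101 sham cells (ratio 2.24, 1.45 to 3.40). All 3 ratios lay above 1. The cluster led by Hmcn2 had 2 cells in JVL-14, too few for a ratio.

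**Figure D2:**
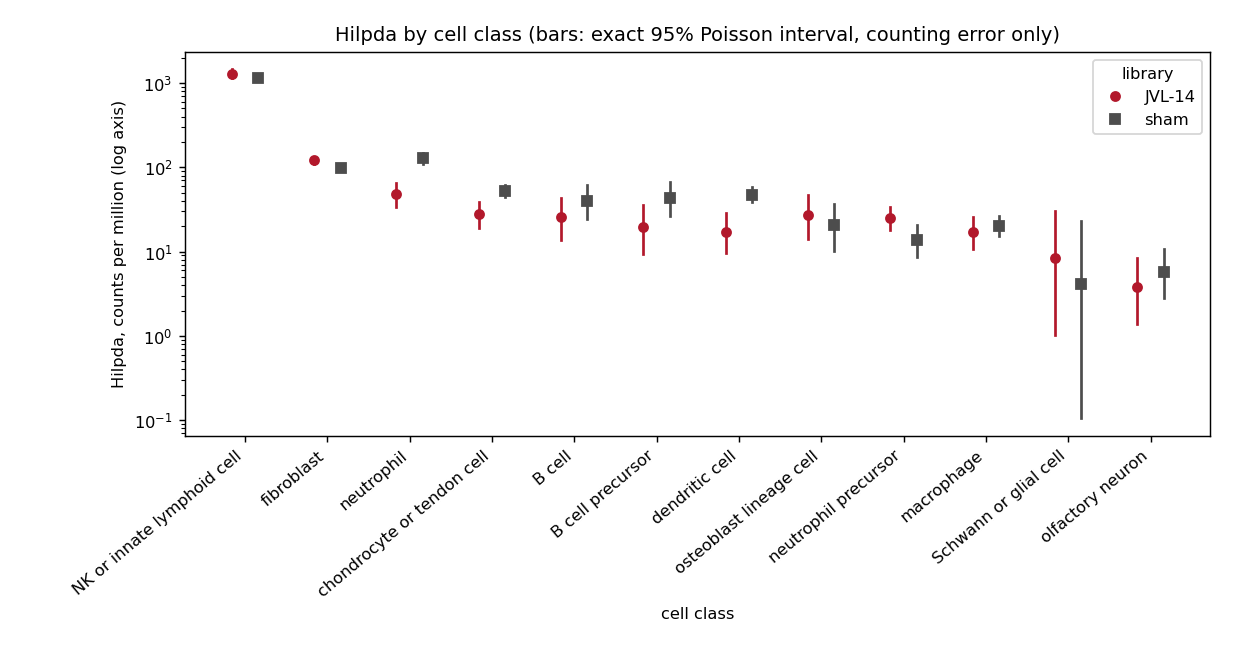
Hilpda level (CPM, log axis) in 12 cell classes ordered by their mean, with JVL-14 as red circles left of sham as grey squares. Bars are exact 95% Poisson intervals for counting error only. Natural killer or innate lymphoid cells lie near 1291 CPM in JVL-14 and 1159 CPM in sham, and the JVL-14 and sham intervals part in neutrophils, dendritic cells and chondrocyte or tendon cells, where JVL-14 is lower, and in fibroblasts, where JVL-14 is higher.

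Bnip3 encodes a mitochondrial receptor for mitophagy. Of the compared classes, olfactory neurons had its highest level, 128 CPM in JVL-14 and 165 CPM in sham (ratio 0.779, 0.647 to 0.936). Schwann or glial cells came next, with 97.3 CPM (61.7 to 146) in JVL-14 and 41.9 CPM (20.1 to 77.0) in sham. The intervals of these 2 classes overlapped in JVL-14 and stood apart in sham. Fibroblasts, next in the order, held 30.6 CPM in JVL-14 and 32.8 CPM in sham (ratio 0.931, 0.739 to 1.17), apart from the glia in JVL-14 and overlapping them in sham, and B cells 1 UMI in each library. Outside the compared classes, skeletal muscle cells of sham held 135 CPM (109 to 167), an interval that overlapped that of the olfactory neurons of sham. Choroid plexus cells of sham held 99.8 CPM (75.0 to 130), and blood endothelial cells 30.1 CPM in JVL-14 and 42.9 CPM in sham. The olfactory neurons alone held 41.7% (37.3% to 46.3%) of the Bnip3 UMIs of JVL-14 and 27.2% (24.5% to 30.0%) of those of sham. Of the UMIs of all genes they held 1574113 of 15315922 in JVL-14 and 1723552 of 28391910 in sham, so these shares also follow the number of cells caught.

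Ndrg1, a stress-induced gene whose product is needed for peripheral myelin, was highest in Schwann or glial cells, at 952 CPM in JVL-14 and 670 CPM in sham (ratio 1.42, 1.16 to 1.75). That class was 2 clusters in unequal proportions. The smaller one had 36 cells in JVL-14 and 24 in sham and held 2254 CPM in JVL-14 and 2286 CPM in sham (ratio 0.986, 0.769 to 1.27). The larger one had 41 cells in JVL-14 and 65 in sham and held 488 CPM in JVL-14 and 195 CPM in sham (ratio 2.50, 1.68 to 3.81). The interval of the ratio held 1 in the smaller cluster and lay above 1 in the larger. Mast cells (449 CPM in JVL-14, 544 CPM in sham) and blood endothelial cells (503 CPM in JVL-14, 281 CPM in sham) were also high. In fibroblasts Ndrg1 was at 171 CPM in JVL-14 and 188 CPM in sham, a ratio of 0.913 (0.830 to 1.002).

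P4ha1 encodes a catalytic subunit of collagen prolyl 4-hydroxylase, which collagen needs to form stable fibres. Its levels were highest in stromal cells and glia. Fibroblasts held 146 CPM in JVL-14 and 145 CPM in sham (ratio 1.01, 0.907 to 1.12), osteoblast lineage cells 141 CPM in JVL-14 and 134 CPM in sham (ratio 1.05, 0.736 to 1.496), and chondrocyte or tendon cells 132 CPM in JVL-14 and 127 CPM in sham (ratio 1.04, 0.856 to 1.26). Schwann or glial cells held 118 CPM in JVL-14 and 176 CPM in sham (ratio 0.674, 0.402 to 1.11), and macrophages 68.3 CPM in JVL-14 and 63.3 CPM in sham (ratio 1.08). Neutrophils held 3 UMIs in JVL-14 and 2 in sham. None of these ratios left 1 by more than counting error.

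Adm encodes adrenomedullin, a peptide that widens vessels and acts on lymphatic and blood endothelium. Fibroblasts had the highest level of the compared classes, 49.0 CPM in JVL-14 and 56.8 CPM in sham (ratio 0.863, 0.722 to 1.03). They held 62.3% (56.2% to 68.0%) of all Adm UMIs of JVL-14 and 77.9% (74.6% to 81.0%) of those of sham. Of the UMIs of all genes, fibroblasts held 3466136 of 15315922 in JVL-14 and 9133169 of 28391910 in sham. B cells came next, at 31.6 CPM in JVL-14 and 45.4 CPM in sham, and their intervals overlapped those of fibroblasts in both libraries. A fibroblast cluster led by Hmcn2, Ccl11 and Tnxb held 0 UMIs in its 2 JVL-14 cells and 205 CPM in its 61 sham cells. Without that cluster the fibroblast log2 ratio was -0.037, against -0.21 with it. An unnamed stromal cluster led by Apod, Ptgds and Slc6a13 held 199.5 CPM in its 45 JVL-14 cells and 209.8 CPM in its 69 sham cells (ratio 0.951, 0.580 to 1.52). Neutrophils held 0 Adm UMIs in either library, which allows up to 3.98 CPM in JVL-14 and 2.19 CPM in sham (3 counts).

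Across the 13 compared classes, 43 member ratios had enough counts (a mean of at least 20 CPM and at least 50 UMIs in both libraries together), and 5 of them passed 1.5-fold. In fibroblasts 0 of 7 measured members passed, where 5.25% of all 6229 measured genes did, and in macrophages 0 of 3, where 8.9% of 5193 did. In chondrocyte or tendon cells it was 1 of 6 (8.51% of all), in dendritic cells 1 of 5 (12.4%), in neutrophils 1 of 3 (14%) and in neutrophil precursors 1 of 2 (27.6%). The members that passed there were Hilpda in the first 3 classes and Hif1a in the precursors. None passed among 4 in olfactory neurons (9.38%), 3 in natural killer or innate lymphoid cells (17.2%), 3 in osteoblast lineage cells (14.2%), 2 in B cells (12.6%), 2 in B cell precursors (14%) and 2 in Schwann or glial cells (33.9%). In erythroid cells 92.8% of genes passed and so did the 1 measured member, Ldha (ratio 2.57). Haemoglobin, ribosomal, mitochondrial and immunoglobulin genes took 75.9% of the erythroid UMIs in JVL-14 and 93.3% in sham, and that ratio is not read.

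In fibroblasts the median log2 ratio of the 7 measured members was -0.0074, beside 0.03 for all measured genes, with 3 members above 1 and 4 below. In macrophages the median of 3 was 0.07, beside -0.0053 for all genes.

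**Figure D3:**
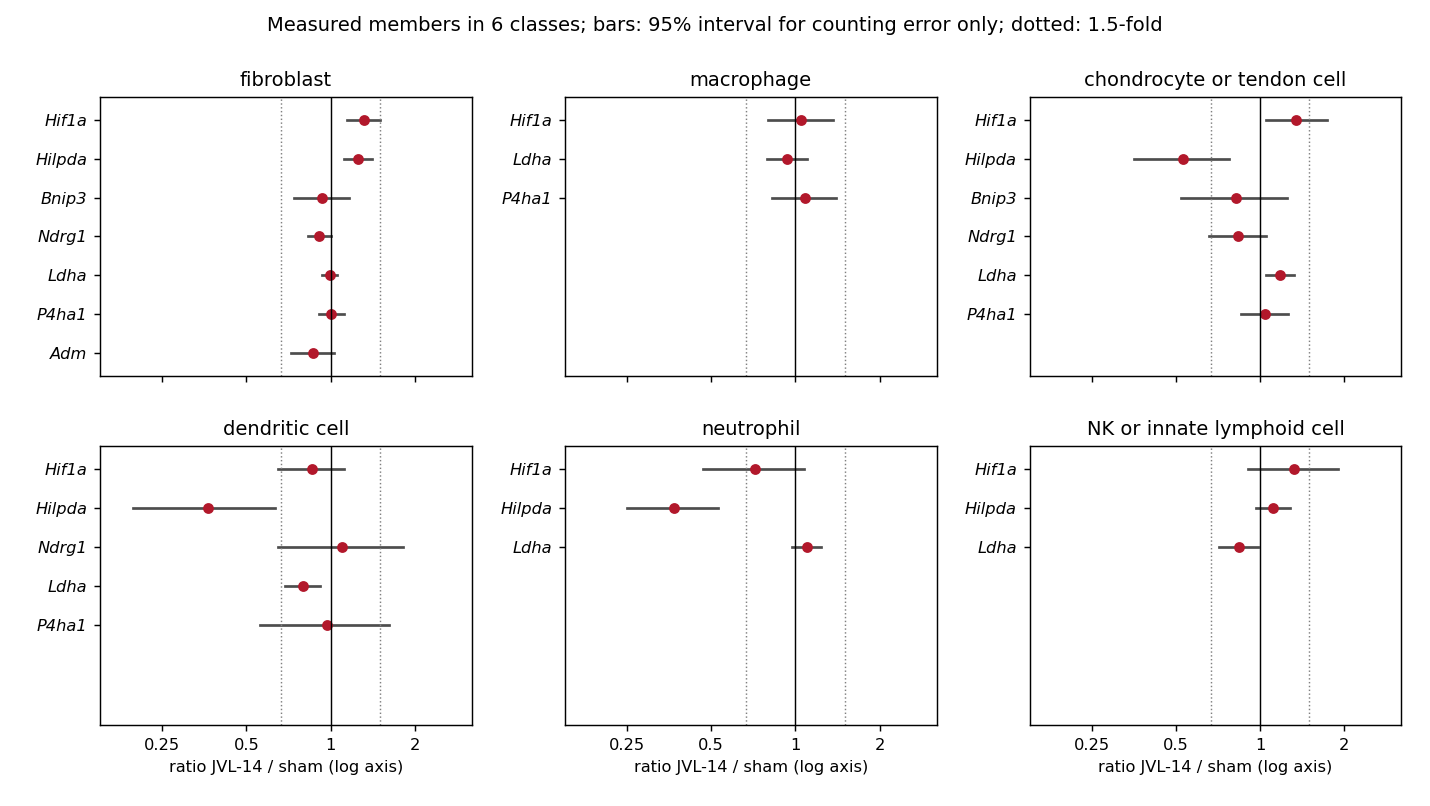
Ratio of JVL-14 over sham (log axis) for the members with enough counts in 6 cell classes. Bars are 95% intervals for counting error only, and dotted lines mark 1.5-fold in either direction. Hilpda lies left of the lower dotted line in dendritic cells, neutrophils and chondrocyte or tendon cells, and right of 1 in fibroblasts (1.25).

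Summed over all retained cells, each of the 7 members with enough counts was lower in JVL-14, with log2 ratios between -0.39 and -0.13 and a median of -0.30, beside -0.03 for all genes. Ldha was at 289.7 CPM in JVL-14 and 379.8 CPM in sham (ratio 0.763, 0.736 to 0.790), and Adm at 17.8 CPM in JVL-14 and 23.5 CPM in sham (ratio 0.7599, 0.658 to 0.876). Hilpda was at 62.1 CPM in JVL-14 and 79.3 CPM in sham (ratio 0.783, 0.725 to 0.845). None of the 7 passed 1.5-fold, where 10.1% of 6545 genes did. The other 3 were too low to be counted among them. Egln3 was at 2.61 CPM in JVL-14 and 8.17 CPM in sham (ratio 0.320, 0.223 to 0.449). Pdk1 (ratio 1.02, 0.814 to 1.28) and Slc2a1 (14.5 CPM in each library) did not differ beyond counting error.

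These sums mix how much a class expresses a gene with how many of its cells were caught. Leaving the skeletal muscle cells out moved the ratio of Egln3 to 0.673 (0.454 to 0.9805) and that of Ldha to 0.841 (0.811 to 0.872), while 7 of 7 stayed below 1. When choroid plexus, pineal, olfactory and erythroid cells were left out as well, 6 of 7 were below 1 and the median log2 ratio was -0.19. A last setting gave the class mix of sham to both libraries over 17 groups of cells. Skeletal muscle, choroid plexus, pineal and mural cells were left out of it, so it both removed cells and changed the weights. In this setting 4 of 7 were below 1 and 3 above, and the median was -0.0030. The ratios ran from -0.15 for Bnip3 to 0.13 for Hif1a on the log2 scale. Under that mix Ldha stood at 339.98 CPM in JVL-14 and 340.7 CPM in sham. The classes behind each gene are seen in the shares of its UMIs. Skeletal muscle cells held 0.293% (0.156% to 0.501%) of the Ldha UMIs of JVL-14 and 11.6% (10.99% to 12.2%) of those of sham. Fibroblasts held 1419 of the 4437 Ldha UMIs of JVL-14 and 3759 of the 10782 of sham. Of the UMIs of all genes, skeletal muscle cells held 7996 of 15315922 in JVL-14 and 657314 of 28391910 in sham. The fibroblast share of all UMIs was 22.6% in JVL-14 and 32.2% in sham.

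**Figure D4:**
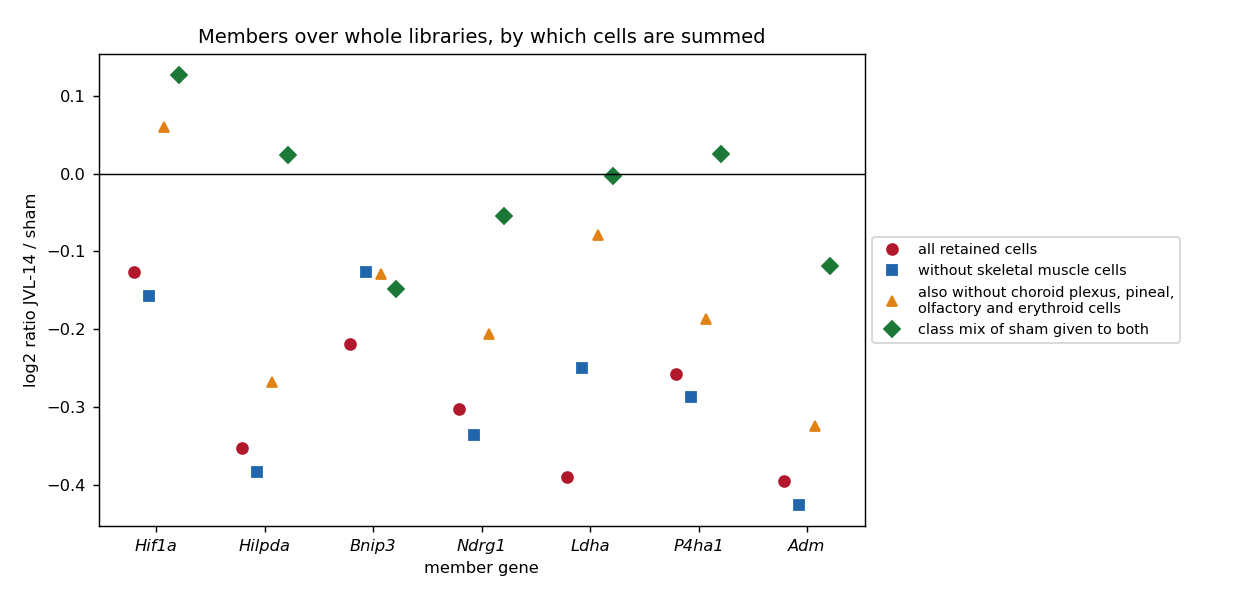
Log2 ratio of JVL-14 over sham for the 7 members with enough counts, summed over all retained cells (red circles), without skeletal muscle cells (blue squares), also without choroid plexus, pineal, olfactory and erythroid cells (orange triangles), and with the class mix of sham given to both libraries (green diamonds). All red circles lie below 0, with a median of -0.30, and the green diamonds lie on both sides of 0. The green diamonds cover 17 groups of cells and leave out skeletal muscle, choroid plexus, pineal and mural cells.

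**Figure D5:**
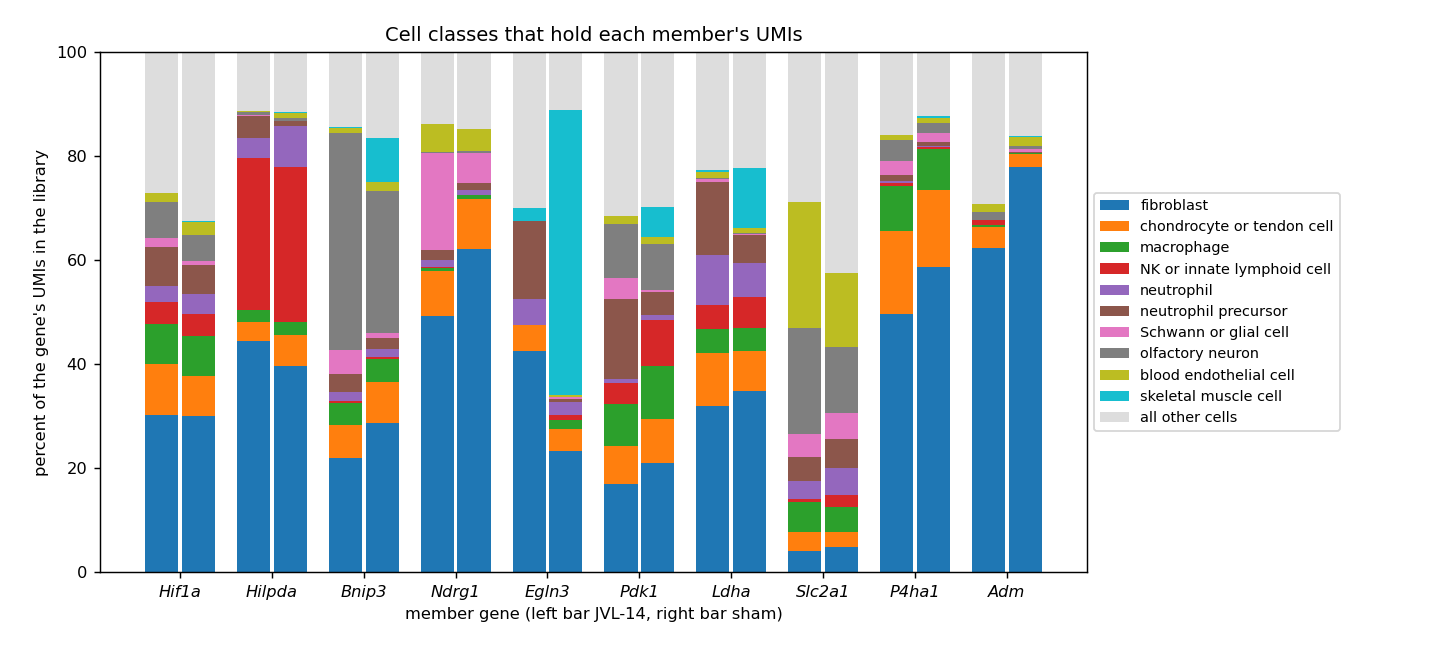
Percent of each gene's UMIs that came from each cell class, with JVL-14 as the left and sham as the right bar of a pair. Skeletal muscle cells (cyan) held 54.7% of the Egln3 UMIs of sham, and natural killer or innate lymphoid cells (red) 29.2% of the Hilpda UMIs of JVL-14 and 29.8% of those of sham.

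Other genes of the pathway were read from lists chosen, like the members, with earlier results of these data known. Of all measured genes, 5.25% passed 1.5-fold in fibroblasts and 8.9% in macrophages. In fibroblasts, 0 of 13 measured glycolytic enzymes passed 1.5-fold (8 above 1 and 5 below, median log2 ratio 0.04). Of 14 other HIF targets, 1 was higher and 1 lower past that fold (median 0.04), and of 9 HIF subunits and regulators 0 were (median -0.04). The higher one was Plod2, a lysyl hydroxylase of collagen, at 179 CPM in JVL-14 and 106 CPM in sham (ratio 1.69, 1.53 to 1.87). It was also the 1 of 8 collagen hydroxylation genes past the fold, beside P4ha1 at a ratio of 1.01. The lower one was Ddit4, a brake on growth signalling that glucocorticoids also induce, at 91.2 CPM in JVL-14 and 178 CPM in sham (ratio 0.511, 0.451 to 0.577). Of 3 measured adrenomedullin receptor genes, Ackr3, a decoy receptor, was lower, at 16.4 CPM in JVL-14 and 32.3 CPM in sham (ratio 0.509, 0.376 to 0.678). None passed among 7 genes of pyruvate dehydrogenase and its kinases (median 0.04), 7 lipid droplet and mitophagy partners (median -0.02), 2 glucose and lactate transporters (median -0.09) and 2 NDRG family genes (median -0.16).

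In macrophages, where 8.9% of all genes passed in either direction, 3 of 12 measured other HIF targets were lower past 1.5-fold and 0 higher (3 above 1 and 9 below, median -0.22). They were Ddit4 (10.9 CPM in JVL-14, 33.1 CPM in sham, ratio 0.328), Mxi1, a MYC antagonist (29.5 CPM in JVL-14, 51.8 CPM in sham, ratio 0.569), and Pfkfb3, which makes an activator of glycolysis (41.1 CPM in JVL-14, 67.6 CPM in sham, ratio 0.608). Of 14 glycolytic enzymes, Ldhb, the other lactate dehydrogenase subunit, was higher (44.2 CPM in JVL-14, 22.3 CPM in sham, ratio 1.98, 1.36 to 2.89), and Pfkfb3, in both lists, was lower. Pnpla2, the triglyceride lipase that HILPDA inhibits, was lower as 1 of 6 lipid droplet and mitophagy partners (34.9 CPM in JVL-14, 64.7 CPM in sham, ratio 0.539, 0.380 to 0.751). None passed among 7 HIF subunits and regulators (median -0.10), 5 genes of pyruvate dehydrogenase and its kinases (median 0.02), 2 transporters (median -0.10), 3 collagen hydroxylation genes (median -0.04) and 1 adrenomedullin receptor gene (0.43).

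Other induced genes differed in the same cells, beside 5.25% of all genes past 1.5-fold in fibroblasts and 8.9% in macrophages. Fkbp5, a glucocorticoid-induced gene, was at 50.5 CPM in JVL-14 and 135 CPM in sham in fibroblasts (ratio 0.373) and at 26.4 CPM in JVL-14 and 122 CPM in sham in macrophages (ratio 0.217). Klf9, another, had ratios of 0.653 in fibroblasts and 0.321 in macrophages. Of 7 measured glucocorticoid-induced genes, 2 were lower past 1.5-fold and 0 higher in each of these classes. Of 22 dissociation and immediate early genes, 2 were higher and 6 lower in fibroblasts (median -0.28), and 7 higher and 0 lower in macrophages (median 0.18). Haemoglobin RNA was higher in JVL-14 in both, summing to 1279 CPM in JVL-14 and 238 CPM in sham in fibroblasts and to 6013 CPM in JVL-14 and 2394 CPM in sham in macrophages. The part of these in the ratios above was not tested.

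Likeness of pattern was described over the 26 summed levels (13 classes in each of 2 libraries), as Pearson's r of log2 levels among 6182 genes. These points share libraries, depth and, in erythroid cells, a denominator filled by haemoglobin, so no test is attached. The 3 genes nearest to Hif1a were Pak2 (r = 0.959), Pfdn5 and Hsd17b8, and those nearest to P4ha1 were Asph (r = 0.961), Myo9a and Tmem276. Nearest to Hilpda were Isy1 (r = 0.855), Coq10b and Nfkb1, to Ldha Emp3 (r = 0.887), Dtnbp1 and Capn1, and to Bnip3 Iftap (r = 0.9104), Tuba1a and Rufy3. Ndrg1 was nearest to Frzb (r = 0.832), Sypl and Scn7a, Pdk1 to Irs2 (r = 0.839), Rb1 and Zbtb21, and Adm to Sec24a (r = 0.773), Trib2 and Foxo1. Slc2a1 was nearest to Syne2 (r = 0.771), Cab39l and Dip2b, and Egln3 to Resf1 (r = 0.735), Aff1 and Trp53inp1. Egln3, Pdk1 and Slc2a1 had few UMIs in nearly every class, so their nearest genes rest largely on levels near the floor. Among the members themselves, Hilpda and Ldha were most alike (r = 0.808), then Hif1a and Hilpda (r = 0.716), while Hilpda and Bnip3 had the value nearest 0 (r = 0.0014).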

How the data were processed

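The authors deposited raw UMI counts per gene and cell barcode, made with Cell Ranger 8.0.0 per the file headers and on mm39 per the submitters' processing notes. Barcodes with at least 200 genes and at most 10% mitochondrial UMIs were kept. Scrublet's own threshold marked 0.230% of JVL-14 and 0.121% of sham barcodes, which is not usable, so the top 5% of scores per library were removed. Cells were clustered with scanpy 1.11.5 (2000 variable genes without the members and listed genes, 30 components, Leiden resolution 1) into 34 clusters, of which 30 were named from marker lists. For each class, the UMIs of all its cells in a library were added up and scaled to a total of 1000000 (CPM). Intervals are exact Poisson for a level, exact conditional binomial for a ratio and exact Clopper-Pearson for a share, at 95%. Log2 ratios add 0.5 to each count. Genes were named by rule: every member, list genes past 1.5-fold in fibroblasts or macrophages, and the 3 genes most like each member. The like genes, clusters' leading genes and the glucocorticoid, muscle and haemoglobin genes are given only where a result is set beside them. The members and all lists were chosen with earlier results of these data known, and the numeric limits for naming clusters were set after the data were seen. Ratios and intervals were checked on simulated counts. The alternatives tried are given in the closing section. Leading genes of some clusters are not reported here.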

Additional observations from a re-analysis of the deposited data

How the results depend on the processing

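Under the 14 alternatives planned and those chosen after seeing the data, 43 class ratios gave 614 alternative values: 75 had the other sign. Of the ratios past 1.5-fold, 7 values turned round. Of the rest, 563 lay within the counting interval and 44 outside it. Of the 5 ratios past 1.5-fold, Hilpda in neutrophils (log2 -2.85 to -1.18) and in dendritic cells (-1.74 to -1.05) stayed past it in all 14, and in chondrocyte or tendon cells (-1.18 to -0.35) in 12, while Hif1a in neutrophil precursors did in 7 of 13. Thinned to 1000 UMIs per cell, the member median of fibroblasts was 0.17 and Hif1a of neutrophil precursors 0.053. The lowest Hilpda value of neutrophils, -2.85, also came from thinning, with JVL-14 at 9.52 CPM in 105 cells. That Hilpda value and the Hif1a value of the precursors rest on few UMIs. Ldha of erythroid cells turned to -0.35 without doublet removal, -2.35 at 5% mitochondrial UMIs, -0.60 as a mean over cells, -1.91 averaged within clusters, -0.53 per UMIs without mitochondrial, ribosomal, haemoglobin and immunoglobulin genes, and -1.76 minus the median of all genes (3.07). Over all retained cells the member median was -0.19 without skeletal muscle, choroid plexus, pineal, olfactory and erythroid cells. Apart from the last, whose construction leaves out cells, the cause was not tested. No value could be given with at least 500 genes per cell for erythroid cells and neutrophil precursors, at 5% mitochondrial UMIs for osteoblast lineage cells, or with all variable genes for natural killer or innate lymphoid cells. Low counts limit Egln3, Pdk1 and Slc2a1 in nearly every class. No paired analysis was possible because each group has 1 library.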
